A study of Mus musculus with 35 samples.

Results

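The 10 genes *Tfap2b*, *Lhx1*, *Lhx9*, *Shox2*, *Gata3*, *Isl1*, *Otp*, *Otx2*, *Uncx* and *Ebf3* encode transcription factors listed as identity factors of the diencephalon, midbrain and hindbrain. They are 10 of 53274 genes with a symbol in the bulk table, and all 10 were measured and passed the filter on low values. They were chosen from the levels of these same libraries and cells, so their values are a description. Where a fit across all genes also called members, the calls are printed beside the share of all genes called and nothing is read from them. The study sorted cells of the mouse brain at E14.5 (embryonic day) by flow cytometry into neural cells, mural cells (pericytes and smooth muscle of vessels), endothelial cells and microglia. Bulk RNA-seq covered these 4 populations of 3 wild-type brains, which gave 12 libraries, named N, Mu, Ec and Mi for neural, mural, endothelial and microglia with the number of the brain. The neural libraries are thus N-340, N-343, N-346. That a number stands for 1 brain is read from these names and is not stated otherwise. Single cells were sequenced by mCEL-Seq2, a protocol that counts transcripts by molecular identifiers, on 3 plates of wild-type cells and on 3 plates of *Mof* Knockout cells of the same age. Strain, dissection borders and the cells that carry the deletion are not given in the sources used here, and a sort gate is known for wild-type wells alone. Neural cells are those negative for the vascular and blood cell surface markers. The paper states that its wild-type single cells came from 3 independent brains in equal numbers. Whether a plate holds cells of 1 brain is not given, so the spread between plates may be technical, between brains or both.

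The brain vesicles are laid out from head to tail as telencephalon, diencephalon, midbrain and hindbrain, and each is marked by its own set of transcription factors. *Otx2* marks the forebrain and midbrain up to the border with the hindbrain, engrailed genes that border itself, and Hox genes the hindbrain segments behind the first and the spinal cord. Among the 10 factors, *Otp* is known from the hypothalamus, *Lhx9* and *Shox2* from the thalamus and midbrain, and *Gata3* and *Tfap2b* from GABAergic neurons of the midbrain and hindbrain. *Lhx1* and *Isl1* carry LIM domains and a homeodomain, *Uncx* and *Otp* a paired-type homeodomain, and *Ebf3* belongs to the family of early B-cell factors, which act in young neurons.

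In the mm10 build, the genes of the 10 factors lie on 8 chromosomes. *Tfap2b* is at chr1:19208914-19238576 and *Lhx9* at chr1:138825186-138848577, *Gata3* at chr2:9857078-9890034, *Shox2* at chr3:66971727-66981771, *Uncx* at chr5:139543494-139548179 and *Ebf3* at chr7:137193673-137314445. *Lhx1* is at chr11:84518284-84525535, *Otp* at chr13:94875602-94885130, *Isl1* at chr13:116298281-116309689 and *Otx2* at chr14:48657677-48673819. No pair of them is adjacent.

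Upstream sequences of 3 of these genes are shown as examples of the members whose pairs in single cells are described further on. Each is the 250 bases before the RefSeq start site (GRCm38.p6), read 5′ to 3′ on the strand of the gene, with CpG dinucleotides in capitals. That of *Shox2* lies at chr3:66981772-66982021 on the minus strand, in an intron of *Rsrc1* on the other strand. That of *Lhx1* lies at chr11:84525535-84525784 on the minus strand and overlaps an exon of the noncoding Lhx1os on the other strand, and that of *Ebf3* at chr7:137314446-137314695 on the minus strand.
*Shox2*: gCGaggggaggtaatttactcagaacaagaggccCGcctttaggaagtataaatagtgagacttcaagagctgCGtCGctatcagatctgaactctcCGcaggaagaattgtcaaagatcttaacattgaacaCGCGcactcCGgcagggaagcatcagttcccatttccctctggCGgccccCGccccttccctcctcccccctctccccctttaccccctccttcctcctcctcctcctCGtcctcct
*Lhx1*: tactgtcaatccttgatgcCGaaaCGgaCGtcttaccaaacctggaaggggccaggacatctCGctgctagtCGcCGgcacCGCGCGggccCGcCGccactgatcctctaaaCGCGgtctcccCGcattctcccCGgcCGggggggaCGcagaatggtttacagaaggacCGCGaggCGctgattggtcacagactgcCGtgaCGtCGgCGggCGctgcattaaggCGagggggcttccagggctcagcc
*Ebf3*: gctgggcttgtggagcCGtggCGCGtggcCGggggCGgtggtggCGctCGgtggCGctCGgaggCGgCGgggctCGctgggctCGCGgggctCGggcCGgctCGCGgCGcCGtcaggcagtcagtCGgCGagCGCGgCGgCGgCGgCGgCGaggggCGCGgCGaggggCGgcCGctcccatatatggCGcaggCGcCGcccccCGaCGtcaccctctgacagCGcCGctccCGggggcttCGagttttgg
The windows hold 11, 26 and 43 CpG for *Shox2*, *Lhx1* and *Ebf3*. Over the 10 members the median was 18.5, against 6 over the 27025 genes with such a window and 15.0 over 10 telencephalon factors. The members were not alike in this, since *Lhx9* had 4 and *Tfap2b* 5. TAATTA, letters that many homeodomain proteins bind and that read the same on both strands, stood in the first listed window of 2 of 10 members, *Otx2* and *Uncx*, and in 4.90% of all windows. A match is a description and not a binding site.

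The question put to these genes was which brain regions the sorted neural cells cover. In the bulk libraries each of the 10 factors had its highest level in neural cells, and in 10 of 10 the 3 neural libraries lay above the 9 others. This held for 25.2% of the 19765 genes tested. At a limma adjusted p under 0.05 in the contrast of neural cells with the mean of the other populations, 10 of 10 members were called higher, against 32.9% of all genes. The median log2 difference of the members was 5.66, on the scale of log2(normalized count + 1), and 0.09 over all genes tested. Both counts follow from the choice of these genes. Neural libraries were made with another RNA kit and another library kit (TruSeq) than those of the other populations (SMART-Seq v4 and Nextera XT), so population and chemistry cannot be told apart. In bulk samples, fewer cells of a type and less RNA per cell cannot be told apart either.

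**Figure D1:**
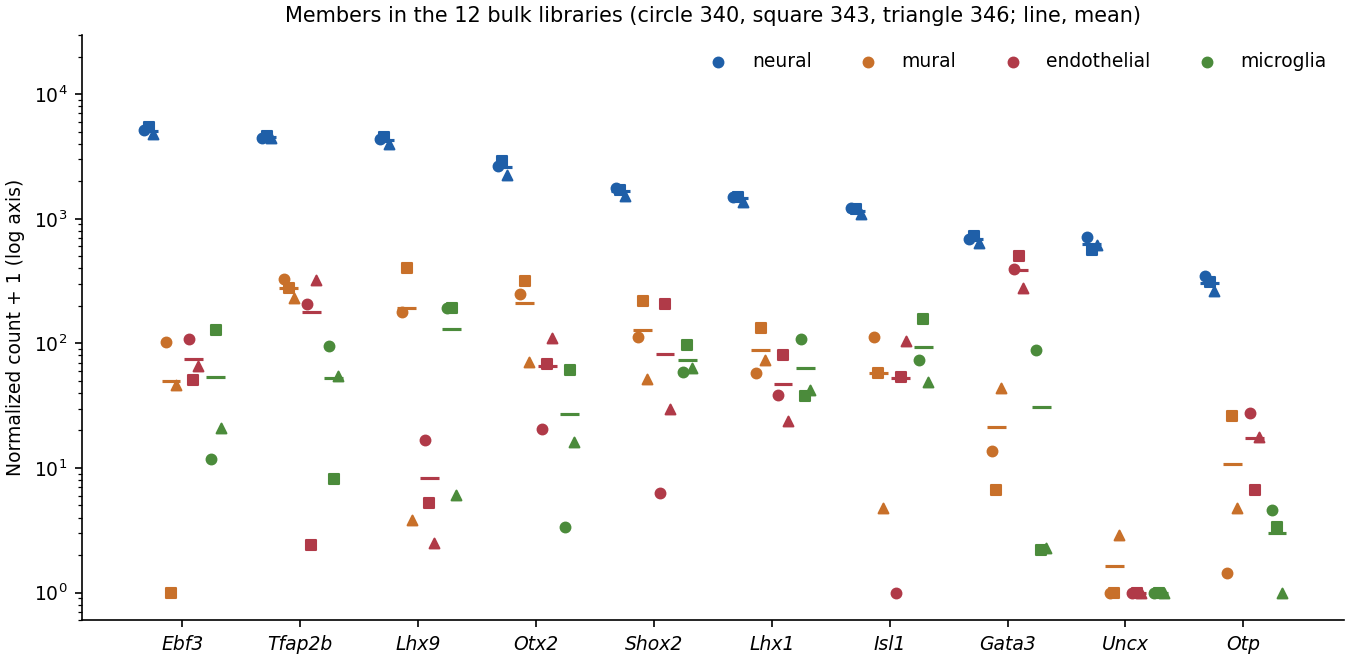
Normalized count plus 1 (log axis) of the 10 members in the 12 bulk libraries, colored by population, with symbols for the brains and a line at the mean of 3. The 3 neural libraries lie above the 9 others for each member, and *Gata3* has the smallest gap, to the endothelial libraries.

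*Uncx* had the sharpest contrast. Its neural normalized counts, with brains in rising order of number here and below, were 714, 558 and 613 (629 ± 79.3, mean and SD, n = 3). It was listed at 0 in 8 of the 9 other libraries and at 1.88 in Mu-346, which rests on 2 reads. *Ebf3* read 5135, 5424 and 4768 in neural cells (5109 ± 329). In the other libraries it ran from 0 in Mu-343 to 127 in Mi-343. Its lowest neural library was 37.6 times the highest other library.

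*Tfap2b*, which encodes AP-2β, read 4456, 4579 and 4450.0 in neural cells (4495 ± 72.8, n = 3). Mural libraries held 329.9, 276 and 230.1, endothelial libraries 207, 1.42 and 321, and microglia 95.1, 7.12 and 54.1. The mural libraries are within a narrow range, while those of endothelial cells and microglia scatter between brains. *Lhx9* read 4341, 4524 and 3988 in neural cells (4285 ± 273). It was patchy elsewhere, with 176, 401 and 2.82 in mural, 15.9, 4.26 and 1.51 in endothelial and 191, 191 and 5.04 in microglia libraries.

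The remaining members, apart from *Gata3*, are homeodomain factors whose other libraries were low. *Otx2* read 2636, 2903 and 2239.5 in neural libraries (2593 ± 334) and 249.9, 313 and 70.4 in mural libraries. Its endothelial and microglia libraries stayed between 2.38 and 110.1. *Shox2* read 1768, 1702 and 1525 in neural cells (1665 ± 126), and its other libraries ran from 5.32 to 216. *Lhx1*, a factor of inhibitory neurons and Purkinje cells, read 1493, 1505 and 1368 (1455 ± 75.6), with 22.6 to 132 elsewhere. No neural library of these genes overlaps with another population. *Isl1*, known from motor neurons and from striatal and hypothalamic neurons, read 1209, 1194 and 1088 (1164 ± 65.7), with 0 to 155 elsewhere. *Otp* read 349, 309 and 261 (306 ± 43.7) and at most 26.6 in any other library.

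*Gata3* was the exception among the members in its second population. Neural libraries read 689, 733 and 642 (688 ± 45.6) and endothelial libraries 397, 497 and 276, while mural cells held 12.7, 5.71 and 43.2 and microglia 88.0, 1.19 and 1.26. The endothelial mean was 56.7% of the neural mean, against 0.0996 to 8.14% for the highest other population of the remaining 9 members. Neural and endothelial libraries do not overlap, but the gap is small, with the lowest neural library at 1.29 times the highest endothelial one. The log2 difference from the mean of the other populations was 4.26 (SE 1.03), and from endothelial cells alone, the smallest of the pairwise differences, it was 0.86 and was not called. Without the brain of N-343 the difference was 3.77 and was not called. *Isl1*, with 155 in Mi-343, was also not called against each population separately, at 3.82 for its smallest difference.

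Levels between genes were compared per kilobase of exon, using GENCODE vM21 lengths. In neural libraries *Tfap2b* came first, at 709 ± 11.5 normalized counts per kilobase (SD, n = 3), then *Otx2* at 614 ± 79.1, *Ebf3* at 554 ± 35.7, *Shox2* at 503 ± 38.0 and *Lhx9* at 451 ± 28.7. The order ended with *Lhx1* at 357, *Isl1* at 294, *Uncx* at 200.4, *Gata3* at 173 and *Otp* at 106. Libraries of neighbors in this order overlapped for *Otx2* and *Ebf3*, *Ebf3* and *Shox2*, *Shox2* and *Lhx9*, and *Uncx* and *Gata3*, so those ranks do not differ beyond the spread. In the annotation, genes on the other strand overlap *Ebf3*, *Gata3*, *Otx2* and *Shox2*, and genes on the same strand overlap *Gata3* and *Otx2*. Whether reads were counted by strand is not given in the sources used here. The part of all these overlapping genes in the values was not tested.

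Member RNA in the 9 other libraries was low as a whole. The summed normalized counts of the 10 members were 2.34 to 6.37% of the neural mean in mural, 3.65 to 4.31% in endothelial and 1.11 to 3.02% in microglia libraries. Summed telencephalon factors were at 1.34 to 4.23%, 1.84 to 3.28% and 0.724 to 1.71%. The 12 neural markers summed to 19.4 to 32.0% in mural, 4.16 to 5.36% in endothelial and 3.73 to 5.82% in microglia libraries. Most of the mural sum came from *Fabp7*, with a mean of 26942 in mural and 7602 in neural cells, and *Nnat*, with 19808 and 56375, while *Tubb3* had 1109 and 31995 and *Dcx* 489 and 34247. In neural libraries microglia markers summed to between 11.6 and 20.0, against 307202 or more in microglia, and endothelial markers to between 146 and 194. Erythroid markers were not low, with sums of 9021, 9101 and 11826 in neural libraries, highest in N-346, against 242 to 598 in mural, 1667 to 2075 in microglia and 13054 to 34038 in endothelial libraries. Mural markers summed to between 2673 and 2920.1 in neural and 736769.6 or more in mural libraries, and choroid plexus markers, of a tissue that also uses *Otx2*, to between 57.0 and 72.1 in neural libraries. What part carried-over RNA has in these values was not tested.

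The other region factors were then read from lists of genes that are no members. All 12 telencephalon factors were called higher in neural cells, with a median log2 difference of 6.89. *Neurod6*, of cortical projection neurons, had a neural mean of 9229 and *Dlx1*, of ventral forebrain interneurons, one of 7704. Of 15 diencephalon and hypothalamus factors, 13 were tested and 12 were called higher, with a median of 5.64. *Nkx2-1*, of the hypothalamus and ventral telencephalon, had a neural mean of 1534 and *Lhx5* one of 1394. *Tcf7l2*, a Wnt effector that marks the thalamus, was high in every population (5083 in neural, 5079.8 in endothelial cells). Its difference was 0.46, and it is among the 12 called, although Ec-340, at 7196, lay above each neural library. For 11 of the 13 tested, all neural libraries lay above all others. *Hmx2* and *Hmx3* did not pass the filter.

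Of 19 midbrain factors, 17 were tested and 15 were called higher, with a median log2 difference of 5.98. *Tal2*, which specifies GABAergic midbrain neurons, read 1199, 1281 and 1218 in neural libraries, and *Pou4f1*, of the tectum and habenula, 1136, 1090.4 and 881. *En2*, an engrailed gene of the midbrain and anterior hindbrain, read 1040.3, 969 and 804 and had a mean of at most 4.37 in any other population. *Nr4a2* had a neural mean of 1157 but also 1105 in endothelial cells and was not called. *Gata2*, the partner of *Gata3* in the same family, was highest in endothelial cells, at 671 against 379.7 in neural cells, and was not called. *Pax8* was low throughout, with 19.5 in neural cells and 28.0 in microglia, and is among the 15 called, since the contrast takes the mean of the other populations. For 12 of the 17 tested, all neural libraries lay above all others.

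Hox genes of the hindbrain were near 0 in neural cells, while some other genes of the hindbrain list were called higher. The 10 hindbrain Hox genes summed to 1, 7 and 36 reads in the neural libraries, out of 18900569, 45102322 and 98414914 reads on genes. *Hoxa2*, the most anterior of them, read 1.34, 3.88 and 4.49 normalized counts, and *Hoxa3*, *Hoxa4*, *Hoxd4*, *Hoxa5* and *Hoxb5* were at 0 in all 12 libraries. The 10 spinal Hox genes summed to 0, 2 and 12 reads, and *Hoxc6*, at a mean of 13.0 in mural cells, was the highest of them in any population. Of the 20 hindbrain factors, 6 passed the filter, 3 were called higher in neural cells and 2 lower. Those called higher included *Barhl1* (neural mean 991), which also marks the diencephalon and midbrain, and *Atoh1* (47.4), of the rhombic lip. *Egr2*, a segment gene of the hindbrain that also serves macrophages, was highest in microglia at 12341, against 356 in neural cells, and was called lower. *Hoxb4*, at 0 in neural cells and 43.5 in microglia, was the other gene called lower. *Hoxb3* and *Hoxd3* were at most at 1.26 and *Phox2a* at most at 9.79 in any population. The first hindbrain segment carries no Hox genes, and whether the libraries hold it was not tested. The members are called the 10 factors here, since these values leave the hindbrain part of the list's name unsettled.

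**Figure D2:**
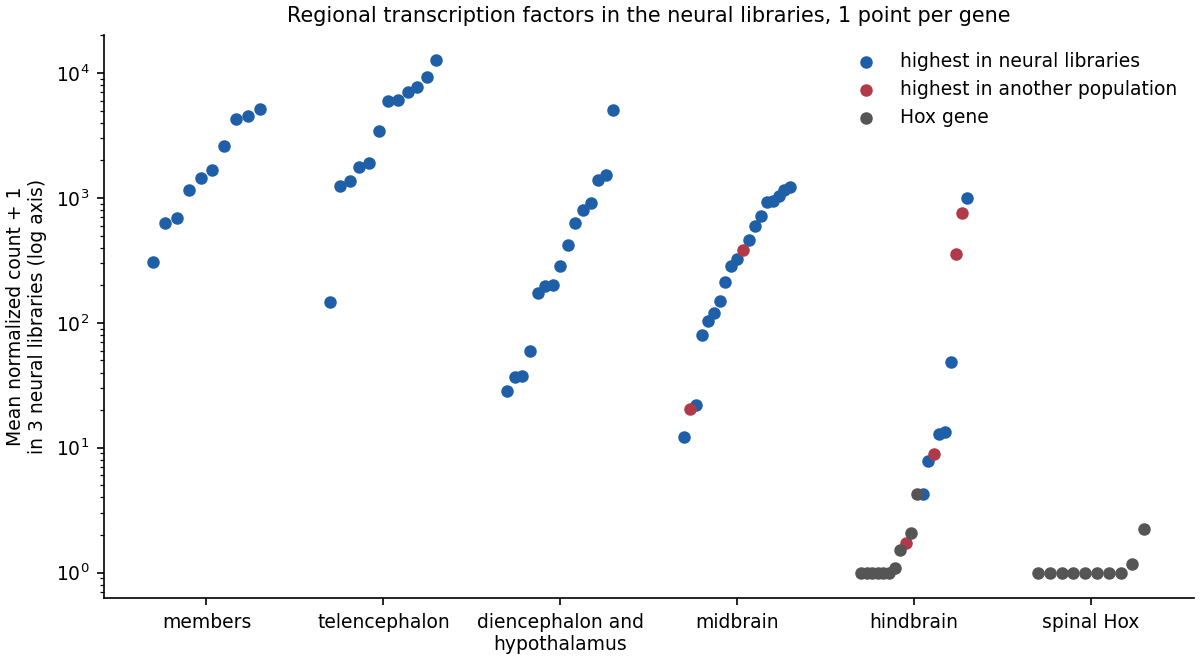
Mean normalized count plus 1 (log axis) over the 3 neural libraries for each gene of 6 lists, with color for the population of the highest mean and for Hox genes. *Neurod6*, at 9229, is among the highest, and no Hox gene lies above 3.23.

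Related genes of the same families were read beside the members. Of 12 paralogs, 11 were tested and 9 were called higher in neural cells. The neural means were 1394 for *Lhx5*, 8694 for *Lhx2*, 1855 for *Otx1*, 1661 for *Ebf2*, 556 for *Ebf4*, and 399.9, 921, 518 and 84.0 for *Tfap2a*, *Tfap2c*, *Tfap2d* and *Tfap2e*. *Ebf1* was highest in mural cells, at 15226 against 1412 in neural and 3726 in endothelial cells, and was not called. *Isl2* had a neural mean of 8.14 and was not tested.

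LIM homeodomain factors such as *Lhx1*, *Lhx9* and *Isl1* act through the cofactor LDB and are held in check by LMO proteins. Of 6 such cofactors, 5 were called higher in neural cells and 1 lower. *Ldb1* had a neural mean of 11684, *Lmo3* one of 2389 and *Lmo4* one of 2448. *Lmo2*, known from blood and endothelium, was lower in neural cells (189 against 8809 in endothelial cells). *Ldb2* was highest in endothelial cells, at 1499 against 439.6, although its difference from the mean of the other populations was called higher.

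Over the 12 libraries, the genes most like each member in log2(normalized count + 1) had Pearson r between 0.9386 and 0.9945. Each r describes 12 libraries of 4 populations that share the step between neural and other cells. For *Uncx* these were *Gm49654*, *Ecel1* and *Nalcn*, all with means of 0 in the other populations. For *Gata3* they were *Ppm1l*, *Ssx2ip* and *Bend5*, whose endothelial means were 2335, 1457 and 426. *Neurod6* led for *Otp*, *Ptpn5*, *Adat1* and *Six3os1* stood with *Lhx9*, and *Pfkfb2*, *Fam117b* and *Ppp4r3a* with *Shox2*. Those of *Tfap2b* were *C130071C03Rik*, *Fhl1* and *Trp53inp1*, and those of *Lhx1* were *Gng2*, *Rbbp4* and *Gm11847*. *Isl1* had *Fam222a*, *Sh3bp5l* and *Plekha8*, *Otx2* had *Tenm4*, *Ccl27a* and *Akap6*, *Ebf3* had *Nkrf*, *Xpo5* and *Cab39*, and *Otp* after *Neurod6* had *Bzw2* and *Nipsnap1*. No member was among the genes most like another member.

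Members and other region factors differed between the neural libraries of the 3 brains. Of the 10 members, 9 were lowest in N-346, *Uncx* being the exception, against 25.1% of the 11917 genes with a neural mean of at least 100. The ratio of N-346 to the mean of N-340 and N-343 was lowest for *Otp*, at 0.795, and *Otx2*, at 0.809, and highest for *Tfap2b*, at 0.985. In log2 the members ran from -0.33 to -0.02, with a median of -0.15. Midbrain factors had a median of -0.21 and were lowest in N-346 in 12 of 15 cases, and diencephalon and hypothalamus factors had a median of -0.17, with 8 of 11 lowest there. Telencephalon factors had a median of 0.15, and 10 of 12 were highest in N-346, as were 5870 of the 11917 genes and 8 of the 12 neural markers. Over all genes the median was 0.03. N-346 was also the deepest and the highest in erythroid markers. With 1 neural library a brain there is no replicate of this difference, and the part of these features in it was not tested.

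**Figure D3:**
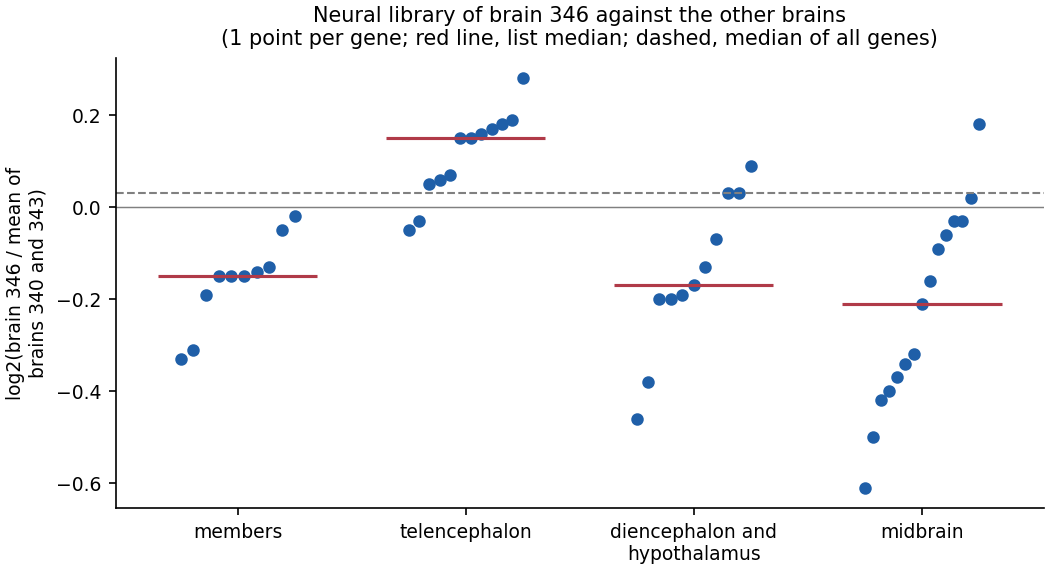
Log2 ratio of the neural library N-346 to the mean of N-340 and N-343, 1 point per gene with a neural mean of at least 100, with red lines at list medians and a dashed line at the median of all such genes. Members, diencephalon and midbrain factors lie mostly below 0 and telencephalon factors mostly above.

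In single wild-type cells the question was how many cells of the neural gate hold these factors and whether other gates do. Cells with more than 1500 transcripts were used, which left 123 neural-gate, 210 mural-gate, 225 endothelial-gate and 128 microglia-gate cells, with median depths of 7717, 6885, 6408 and 10761 transcripts. At least 1 member was found in 64 of 123 neural cells, or 52.0% (exact 95% interval 42.8 to 61.1). The shares were 16.7% in the mural, 24.0% in the endothelial and 7.81% in the microglia gate. Thinned to 1500 transcripts per cell, they were 32.5%, 7.14%, 6.22% and 1.56%, so that the order of the mural and endothelial gates turned. The plates gave 53.6%, 54.7% and 35.7% in the neural gate, with 56, 53 and 14 cells. Barcodes that had no sorted cell held a member in 3.17% of 2208 cases, at a median of 118 transcripts. Intervals cover counting error only.

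*Ebf3* was found most often, in 25 of 123 neural cells (20.3%, interval 13.6 to 28.5). *Lhx9* followed with 18 cells (14.6%) and *Otx2* with 17 (13.8%), then *Lhx1*, *Shox2* and *Uncx* with 13 each (10.6%) and *Isl1* with 11 (8.94%). The intervals of neighbors in this order overlap. By plate, neural-gate sums of *Ebf3* were 144, 87.6 and 54.7 CPM, those of *Lhx9* 88.6, 59.2 and 54.7 CPM and those of *Otx2* 48.7, 104 and 164 CPM. *Shox2*, with 90.8, 40.2 and 10.9 CPM, and *Isl1*, with 81.9, 133 and 0 CPM, spread more between plates, and plate 3 has only 14 neural-gate cells. *Otp* was found in 4 neural cells, all on plate 2, and in no cell of the 3 other gates. For 8 of the members, all but *Gata3* and *Ebf3*, no other gate exceeded 3.81% of cells.

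**Figure D4:**
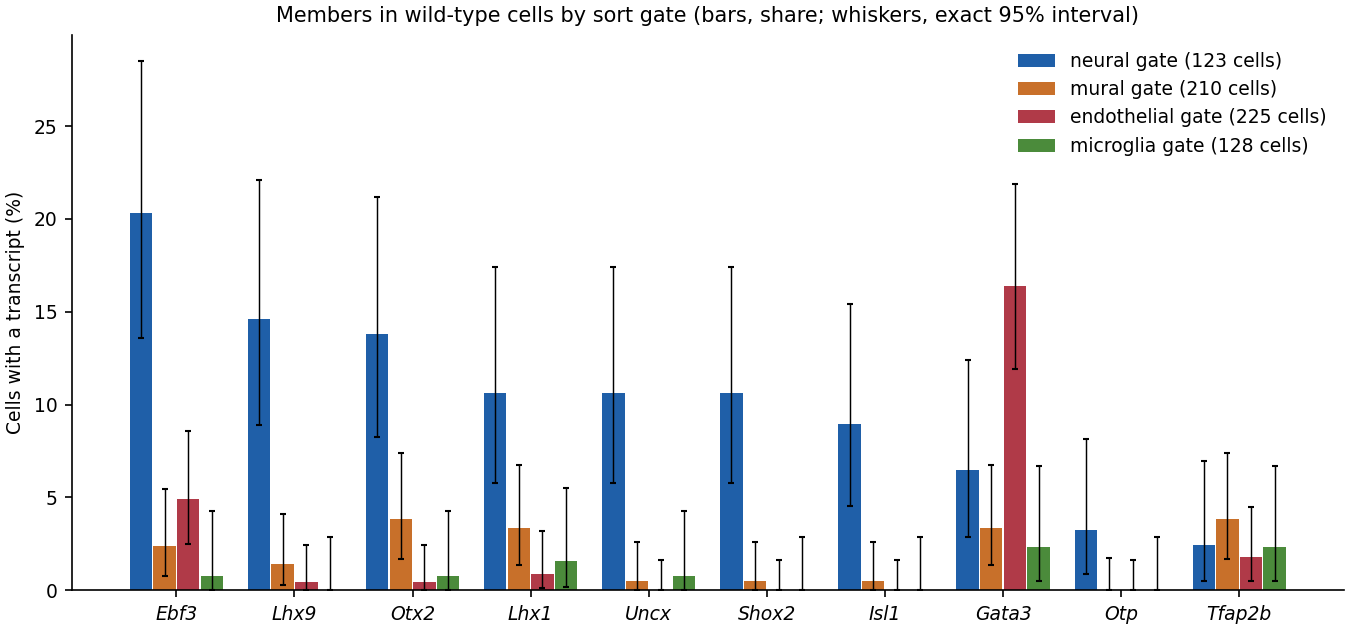
Share of wild-type cells with at least 1 transcript of each member, by sort gate, with exact 95% intervals. The neural bar is the highest for 8 members, while *Gata3* is highest in the endothelial gate and the intervals of *Tfap2b* overlap in all 4 gates.

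*Gata3* was detected in 37 of 225 endothelial-gate cells (16.4%, interval 11.9 to 21.9) and in 8 of 123 neural-gate cells (6.50%, interval 2.85 to 12.4). Scaled to a common total (CPM), the neural value was 55.0 and the endothelial one 39.0, so no order is read from the shares. By plate these were 39.9, 35.5 and 219 CPM in neural against 31.3, 51.8 and 28.5 CPM in endothelial cells, so plate 2 had the opposite order and the highest neural value came from 2 of 14 cells on plate 3. *Ebf3* was found in 11 endothelial-gate cells (4.89%). *Tfap2b* was found in 3 neural cells (2.44%), against 3.81% in the mural, 1.78% in the endothelial and 2.34% in the microglia gate, although it led the bulk libraries per kilobase. Shares and CPM go opposite ways, so no order is read from them. Its CPM was 34.3 in neural cells and at most 6.45 in the others, and the neural value rests on plate 1. Plate 1 gave 32 of its neural-gate transcripts, in 2 cells, plate 2 gave 1 and plate 3 gave 0 (70.9, 2.37 and 0 CPM), where the mural gate had 4.75, 8.27 and 0 CPM. With plate 1 included, *Tfap2b* had 0.0484 CPM in the neural gate for each bulk count per kilobase, below the range of the other members, from 0.122 to 0.328, and of the telencephalon factors, from 0.0547 to 0.175. The protocol counts transcript ends, and the part of the annotated end of *Tfap2b* in this was not tested.

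On sums per plate and gate, 6 members had enough counts to be tested, and all 6 were called higher in the neural gate (edgeR, Benjamini-Hochberg adjusted p under 0.05), against 22.5% of 9281 genes. The log2 differences were 6.40 for *Lhx9*, 6.07 for *Uncx*, 5.20 for *Otx2*, 4.67 for *Ebf3*, 3.98 for *Lhx1* and 2.94 for *Gata3*. A gene passes the filter here through the gate where it is high, and the members were chosen on these cells, so nothing is read from the count. With cells thinned to 1500 transcripts no member passed the filter. Of the telencephalon factors 8 were tested and all 8 were called higher, of the diencephalon and hypothalamus factors 3 were tested and all 3 were called higher, and of the midbrain factors 2 were tested and none was called. The hindbrain factors tested were 2, and both were called lower.

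Members were then counted in cells with and without a telencephalon factor. At least 1 of the 12 telencephalon factors was found in 108 of 123 neural-gate cells, of which 51 held a member (47.2%), and 13 of the 15 other cells did (86.7%). Median depths were 7698 and 9292 transcripts. *Lhx9* was found in 12 of the 108 cells and 6 of the 15, *Shox2* in 8 and 5, *Gata3* in 4 and 4, and *Otx2* in 13 and 4. *Ebf3* was found in 21 and 4, *Lhx1* and *Uncx* in 11 and 2 each, and *Otp* in 2 and 2. *Isl1*, which the ventral telencephalon also uses, was found in 10 and 1, and *Tfap2b* in 3 and 0. These are counts of cells within 3 plates and are given without a test.

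Pairs of members were found in the same cells to unequal extents. Of 13 neural cells with *Shox2*, 9 also held *Lhx9* (69.2%, while 14.6% of all neural cells held it) and 8 held *Ebf3* (61.5% against 20.3%). Of 8 cells with *Gata3*, 5 held *Lhx1* (62.5% against 10.6%), 4 held *Uncx* and 4 held *Otx2*. Of the same 8 cells, 0 held *Lhx9* (14.6% of all neural cells did) and 1 held *Shox2* (12.5% against 10.6%). With 8 cells, these counts cannot be told from the shares in all neural cells. *Ebf3* was also found with these other members, in 6 of 13 cells with *Uncx* (46.2%), 3 of 8 with *Gata3* (37.5%) and 3 of 13 with *Lhx1* (23.1%). At least 2 of *Lhx9*, *Shox2* and *Ebf3* were found in 14 cells, and at least 2 of *Lhx1*, *Gata3*, *Uncx* and *Otx2* in 12 cells. Of the 123 neural-gate cells, 1 met both conditions. Combinations this rare would share few cells even if unrelated, so no separation is read from this. The median depths of the combinations were 7661 and 9969 transcripts, and all 3 plates contributed to each. These combinations were named after the values were seen, and the pairs of *Ebf3* cut across them.

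**Figure D5:**
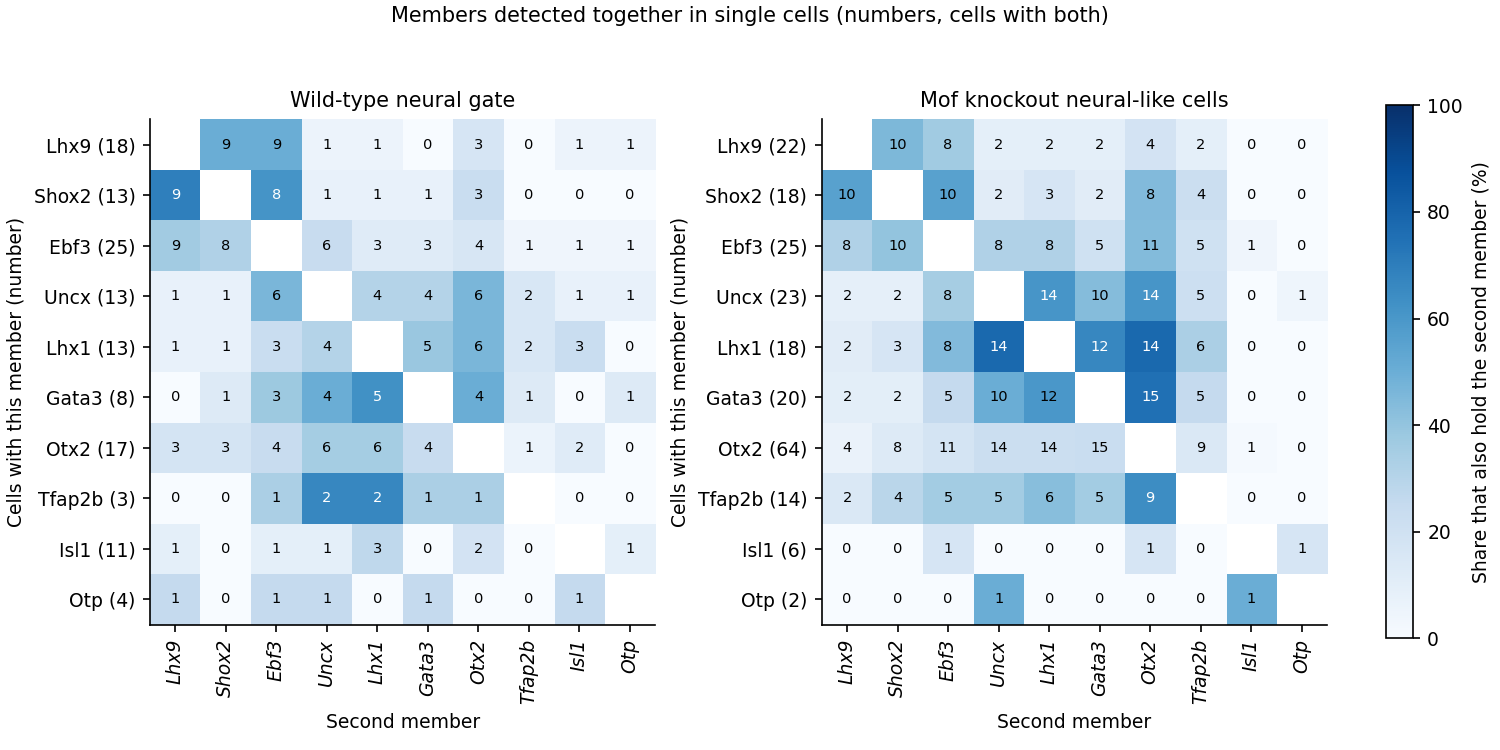
Number of cells that hold both members of a pair, colored by the share of cells with the first member (rows, with their number of cells) that also hold the second (columns), in the wild-type neural gate and in neural-like cells of *Mof* Knockout plates. In wild-type cells 9 held *Lhx9* with *Shox2* and 5 held *Gata3* with *Lhx1*, and in knockout cells these pairs were held by 10 and 12.

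The knockout concerns *Mof*, now named *Kat8*, an acetyltransferase of histone H4. *Kat8* transcripts were found in 11.2%, 12.6% and 9.30% of cells on the wild-type plates and in 9.79%, 7.69% and 6.29% on the knockout plates, at 16.3, 17.6 and 17.5 CPM and 12.7, 10.4 and 11.2 CPM. Since the protocol reads transcript ends, which may lie outside the deleted part, this does not check the labels. Neural-like cells were those whose neural markers scored above the markers of the other 3 types. They numbered 82, 60 and 16 on the wild-type plates and 62, 115 and 40 on knockout plates 4, 5 and 6. By the same rule 122 of 123 cells of the neural gate were neural-like. Most other cells were mural-like on plate 4 (273), microglia-like on plate 5 (79) and endothelial-like on plate 6 (299). Genotype and plate cannot be told apart.

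Any member was found in 48.7% of 158 wild-type neural-like cells (interval 40.7 to 56.8) and in 50.7% of 217 knockout ones (43.8 to 57.5). The knockout plates gave 48.4%, 50.4% and 55.0%. Of the 9 members tested on plate sums, 0 were called either way by edgeR, as were 0% of the 7427 genes. At an unadjusted p under 0.05 there were 365 genes, of which 1 was a member, and DESeq2 called 4 genes and no member. Log2 differences of knockout from wild-type were 0.02 for *Lhx1*, 0.03 for *Lhx9*, 0.15 for *Shox2*, 0.27 for *Uncx* and 0.35 for *Gata3*. They were 2.10 for *Tfap2b*, 1.20 for *Otx2*, -0.64 for *Ebf3* and -1.71 for *Isl1*, none of them called, and *Otp* was not tested. Leaving out 1 plate gave 1.53 to 5.66 for *Tfap2b*, the highest without plate 1, and -2.59 (without plate 5) to -0.89 (without plate 2) for *Isl1*, and no member was called. Without a filter on low counts, *Tfap2b*, at 2.16, and *Isl1*, at -1.65, were called, among 99 of 19080 genes. A result that misses the threshold does not show that levels are alike.

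Plates of 1 genotype spread widely. *Tfap2b* had 49.3, 2.06 and 0 CPM in neural-like cells of plates 1, 2 and 3 and 16.8, 122 and 159 CPM on plates 4, 5 and 6. *Isl1* had 57.0, 116 and 0 CPM on wild-type and 0, 31.2 and 28.9 CPM on knockout plates. *Otx2* had 66.3, 107 and 153 CPM and 241, 129 and 361 CPM. The ranges of *Tfap2b*, *Isl1* and *Otx2* overlap between genotypes. *Gata3* had 29.3, 31.0 and 204 CPM and 1.68, 118 and 155 CPM. In the same order *Uncx* had 27.8, 22.7 and 102 CPM and 0, 84.0 and 50.6 CPM, so that plate 4 is the lowest for both genes. *Lhx9* had 63.2, 51.6 and 50.9 CPM on wild-type plates, close to each other, and 1.68, 66.8 and 112 CPM on knockout plates. *Shox2* had 64.8, 35.1 and 10.2 CPM and 25.2, 62.5 and 50.6 CPM. *Lhx1* had 18.5, 57.8 and 71.3 CPM and 10.1, 51.7 and 75.8 CPM. *Ebf3* had 106, 80.5 and 50.9 CPM and 20.2, 63.5 and 79.4 CPM. *Otp* had 35.1 CPM on plate 2 and 0 on plates 1 and 3, and 0, 17.2 and 28.9 CPM on the knockout plates. Without plate 4, no member and 2 genes were called.

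Plate 4 stood apart from plates 5 and 6. Of its 62 neural-like cells, 29 held *Otx2* (46.8%, interval 34.0 to 59.9), while *Uncx*, *Isl1* and *Otp* were found in none and *Lhx1*, *Lhx9* and *Gata3* in 1 each. A count of 0 of 62 allows a share of up to 5.78% of cells with a detected transcript, which does not limit the share of cells that express the gene. *Neurod6* was found in 0 of these cells, against 34 of 115 on plate 5 and 15 of 40 on plate 6, and *Tbr1*, of cortical neurons, in 0, against 27 and 12. *Otx1* was found in 37, and *Lmx1a*, of the roof plate, cortical hem and midbrain floor, in 21, against 0 on plates 5 and 6. Of 5 choroid plexus markers *Folr1* was found in 13 cells (21.0%) and in none on plates 5 and 6, while *Ttr*, *Kl*, *Clic6* and *Kcnj13* were at 0 on plate 4. Most cells of this plate were mural-like. Among wild-type neural-like cells sorted in the mural gate, 5 of 15 held *Otx2* and 1 held *Lmx1a*, with 0 for *Folr1*. The part of the sort gate in the makeup of plate 4 was not tested, since knockout gates are not known.

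The pairs were also counted on the knockout plates. The members were chosen on these plates too, so the counts are a description and no separate check of the pairs. Of 18 neural-like cells with *Shox2*, 10 held *Lhx9* and 10 held *Ebf3*. Of 20 cells with *Gata3*, 15 held *Otx2* (29.5% of all knockout neural-like cells did), 12 held *Lhx1* and 10 held *Uncx*. Of 18 cells with *Lhx1*, 14 held *Uncx*, where 10.6% of all knockout neural-like cells did. At least 2 of *Lhx9*, *Shox2* and *Ebf3* were found in 18 cells and at least 2 of *Lhx1*, *Gata3*, *Uncx* and *Otx2* in 24, with 5 cells in common. Plates 4, 5 and 6 gave 2, 12 and 4 of the 18 cells and 2, 16 and 6 of the 24. Pairs across these groups were also found, with *Otx2* in 8 of 18 *Shox2* cells and *Ebf3* in 8 of 18 *Lhx1* cells, where the wild-type counts were 3 of 13 for each.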

How the data were processed

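Bulk RNA-seq (12 libraries) and mCEL-Seq2 single cells (23 libraries on 6 plates) of E14.5 mouse brain were used. The processing notes of the labels name BWA 0.6.2-r126, STAR, featureCounts and DESeq2 and the build mm10, without their roles. For bulk, the authors deposited normalized counts, treated here as a linear signal, without coverage tracks. Values up to 100 reads were whole reads times 1 factor per library in 100.0% of 124078 cases (within 0.01 read), and libraries held 17638358 to 98414914 reads on genes. For cells, the authors deposited expected counts, corrected for identifiers drawn more than once, in which every value followed from a whole identifier count. Symbols came from GENCODE vM21 for 53274 of 53465 genes. No per-sample column was left unused.

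Bulk populations were compared with limma 3.58.1 (R 4.3.3), with a trend, on log2(normalized count + 1) for genes with a mean of at least 10 (population minus the mean of the other 3). Sums of cells with over 1500 transcripts, rounded, were compared with edgeR 4.0.16 (TMM, filterByExpr), per plate and gate or per plate of neural-like cells. Calls needed a Benjamini-Hochberg adjusted p under 0.05, and tests were two-sided. Alternatives were DESeq2 1.42.0, pseudocounts, minima, quantile normalization, blocks, cell minima, thinning and each replicate left out. edgeR and DESeq2 on recovered reads were added after seeing the data. Shares have exact (Clopper-Pearson) 95% intervals. The limma and edgeR tests were tested on simulated data. Python 3.11.15, numpy 2.4.6, pandas 2.3.3, scipy 1.17.1 and matplotlib 3.10.9 were used.

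The members and the lists were chosen with earlier results of these data known. Named are all members and paralogs, of each other list the 3 genes with the highest neural mean and those highest in another population, the 3 genes most like each member, and *Kat8*. Some genes that this rule names are not reported here. Promoter sequences came from RefSeq, GRCm38.p6, where all 10 members matched. Of the wells, 96 barcodes were used per library and the same 192 barcodes serve all libraries. No 2 cells had identical values, and no doublet caller was run, since wells hold single sorted cells.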

Additional observations from a re-analysis of the deposited data

Results flagged for a closer look

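Cells that came from none of the 4 main gates also held member transcripts. Of 23 wild-type cells from the gate of medium or low PDGFRβ, 6 held a member (26.1%, exact 95% interval 10.2 to 48.4), which is above the 24.0% of the endothelial, 16.7% of the mural and 7.81% of the microglia gate. The interval overlaps with those of all 3 gates. All 6 cells were among the 15 neural-like cells of that gate, 5 of them held *Otx2* and 1 held *Ebf3*, and no other member was found. Thinned to 1500 transcripts the share was 21.7%. The source of these cells was not tested.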

How the results depend on the processing

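The bulk members called higher in neural cells numbered 8 to 10 under 13 alternatives, the lowest when each other population had to be exceeded. Over all genes the number called higher was 3359 against the highest other population and 2728 with a difference over 10-fold, and between 5332 and 5517 without each brain in turn. edgeR and DESeq2 on recovered reads, added after seeing the data, called 6164 and 5801 higher, and 10 and 9 members. *Shox2* was the member not called by DESeq2 (4.19). Hindbrain factors called higher numbered 7 with a minimum of 1 and 1 with a minimum of 50, since more or fewer genes were tested.

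With a replicate block for the brain, 10 members and 6417 genes were called, and with a block for the plate, 6 members and 2203 genes. Residual correlations of libraries with the same brain number ran from -0.054 to 0.0801, so the values do not show a pairing by number, and the block changed no member's call. No block could be made for the knockout, since each plate holds 1 genotype.

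In the neural gate, members called were 10 without a filter and 0 with cells thinned to 1500 transcripts, where none was tested, and 5 to 8 without each plate. Over all genes DESeq2 called 1367, thinned cells gave 362, and leaving out a plate gave 759 (without plate 1), 779 (without plate 2) to 2242. For the knockout, no filter gave 2 members and 99 genes, DESeq2 gave 4 genes, and leaving out a plate gave 0 to 2. The share of neural cells with a member was 32.5% after thinning and 50 to 54.1% without each plate. Except as named, the cause was not tested. Of 266 log2 differences of members under alternatives, 260 stayed on their side of the threshold, and no called one changed sign. Uncalled knockout differences of *Lhx1*, *Lhx9*, *Shox2*, *Gata3* and *Uncx* had either sign. Among neural libraries depth limits the values least in N-346 and most in N-340, where 1 read is worth 1.34 normalized counts.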

Other observations

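Genes of transmitter use were looked at in the 2 combinations of members after these were seen, and are given as counts without a test. Of the 14 wild-type neural cells with at least 2 of *Lhx9*, *Shox2* and *Ebf3*, 9 held *Slc17a6*, the vesicular glutamate transporter of subcortical neurons, 2 held *Gad2* and none held *Gad1* or *Slc32a1*. Of the 12 with at least 2 of *Lhx1*, *Gata3*, *Uncx* and *Otx2*, 1 held *Slc17a6*, while 5 held *Gad1* and 6 *Gad2*, the enzymes that make GABA, and 4 held *Slc32a1*, its vesicular transporter. *Tal2* was found in 1 of these 12. Over all 123 neural cells the counts were 30 for *Slc17a6*, 19 for *Gad1*, 27 for *Gad2*, 14 for *Slc32a1* and 2 for *Tal2*. On the knockout plates the former combination held *Slc17a6* in 10 of 18 cells and *Gad1* in 4, and the latter held *Slc17a6* in 1 of 24 and *Gad1* in 17, and *Tal2* was found in 4 of the 18 and 12 of the 24. *Gad2* was found in 5 of the 18 and 15 of the 24. Over all 217 knockout neural-like cells *Slc17a6* was found in 41, *Gad1* in 21, *Gad2* in 28 and *Tal2* in 15. The 5 cells in common are counted in both and held *Gad1* in 4, which are all the *Gad1* cells of the former combination.

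Genes of young neurons and of progenitors were also counted in member cells. *Dcx*, of migrating neurons, was in 20 of 25 cells with *Ebf3* and 13 of 18 with *Lhx9*, against 83 of all 123 neural cells. *Tubb3*, a neuronal tubulin, was in all 11 cells with *Isl1* and all 8 with *Gata3*, against 90 of 123. Cells with *Otx2* held *Dcx* in 7 of 17, the lowest share among the members. The progenitor gene *Sox2* was in 13 of 17 cells with *Otx2* and in 6 of 18 with *Lhx9*, the highest and the lowest share among members found in over 3 cells, against 69 of all 123. *Fabp7*, also of progenitors, was in 8 of 17 cells with *Otx2* and 4 of 18 with *Lhx9*, against 49 of 123, and *Hes5* in 2 and 1, against 12. For *Gata3* the counts went apart, with *Sox2* in 6, *Fabp7* in 2 and *Hes5* in 0 of 8 cells. These counts were not tested.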
